A study of Mus musculus with 12 samples.

Results

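The 37 genes described here are targets of the transcription factor p53 (Trp53) and DNA damage response genes. They were taken by symbol from a list chosen with earlier results of these data known. All 37 were found among the 25239 gene symbols of each deposited count table. RNA came from mouse heart cardiomyocytes, cultured per the labels, and was sequenced in 12 libraries of 4 groups with 3 libraries each. The groups were Chaf1a cko, Ctrl, Chaf1a cko 3M and Ctrl 3M. The cko mice were Myh6-Cre; Chaf1a f/f, in which the Myh6 promoter drives Cre in cardiomyocytes to delete floxed Chaf1a. The Ctrl mice, named WT in the tables, were also Chaf1a f/f but without Cre, so effects of Cre and of Chaf1a loss cannot be told apart. CAF-1, whose large subunit Chaf1a encodes, deposits new histones behind the replication fork. The labels do not spell out 3M, give no age for the other libraries and do not say whether libraries came from separate animals. The p-values therefore measure the spread between libraries, which may be technical. The Chaf1a cko and Ctrl libraries are called the first set. The others are called the 3M set, and no level is set against one of the other table. Levels are given as CPM, counts scaled to a common library total with TMM factors.

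p53 is kept at low levels by its own target Mdm2, a ubiquitin ligase that marks it for degradation. DNA damage activates the kinases ATM and ATR, p53 escapes Mdm2, and it binds response elements near genes for cell cycle arrest, DNA repair and cell death. In the heart, p53 has been studied for its part in cardiomyocyte death and cell cycle exit. The comparison of genotypes asks whether loss of a replication-coupled histone chaperone goes with higher RNA of these targets.

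No p53 target passed the test in either set. Adjusted p-values are Benjamini-Hochberg values of edgeR's quasi-likelihood fit. By these 0 of 37 members were called in Chaf1a cko against Ctrl, where 1.18% of the 22965 genes tested passed an adjusted p of 0.05. Of the 36 members tested in the 3M set edgeR called 0, where 0.0144% of 13925 genes passed, and Pmaip1 was too low to be tested. DESeq2 also called 0 members in both sets, with a smallest adjusted p of 0.0549 in the first and 0.350 in the 3M set. At an unadjusted p under 0.05, 5 members were higher in Chaf1a cko (Ccng1, Ckap2, Bax, Zmat3 and Sesn2), which is 13.5% of members, against 5.63% of all genes tested. At the same threshold 2 members were lower (Btg2 and Gadd45a), which is 5.41% of members, against 4.5% of all genes. Among 3M members, 3 were higher (Gadd45a, Abhd4 and Tigar), or 8.33% of members against 3.2% of all genes. Another 2 were lower there (Plk3 and Apaf1), or 5.56% against 3.73%. Gadd45a, a stress sensor that restrains the cell cycle, is the 1 member on both lists, and its sign differed between them.

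**Figure D1:**
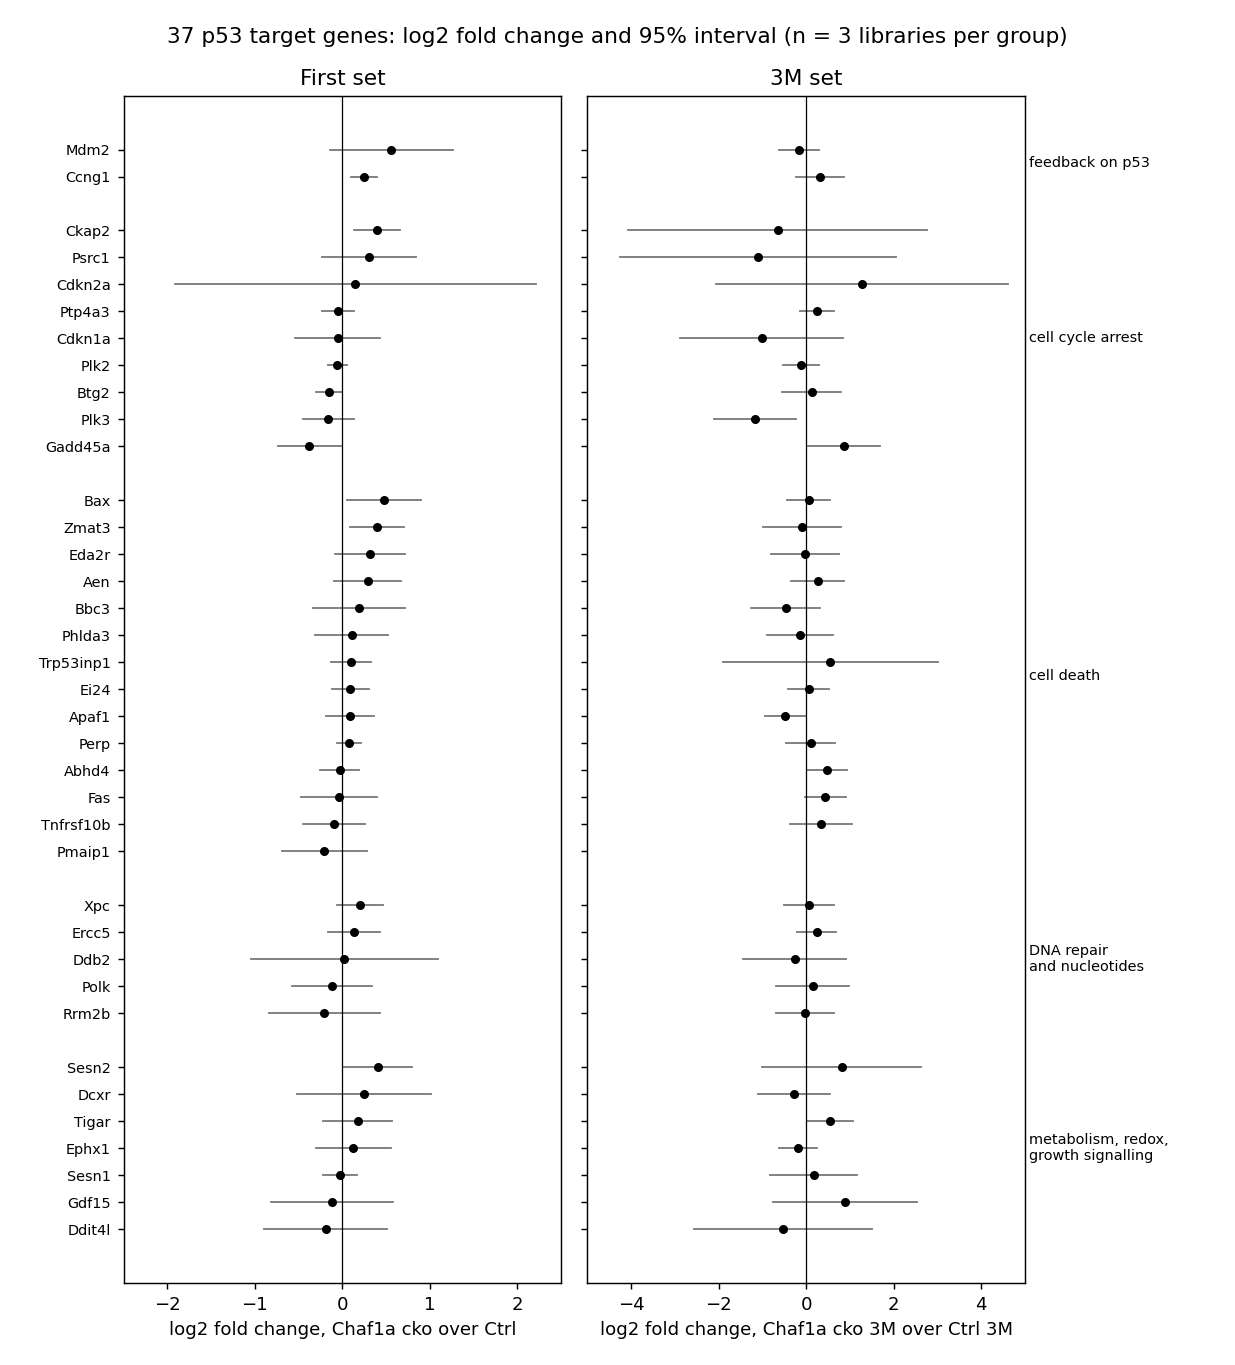
Log2 fold change (point) and 95% interval (line) of each member, Chaf1a cko over Ctrl in the left panel and Chaf1a cko 3M over Ctrl 3M in the right panel, with n = 3 libraries per group and members grouped by role. The horizontal scale differs between the panels. The intervals exclude 0 for 7 members in the left panel, and no member passed the adjusted threshold in either panel.

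The fold changes were small in the first set and less precise in the 3M set. Log2 fold changes ran from -0.38 (Gadd45a) to 0.56 (Mdm2) in the first set. They ran from -1.16 (Plk3, SE 0.41) to 1.27 (Cdkn2a, SE 1.47) in the 3M set. The median standard error of a member was 0.19 in the first and 0.32 in the 3M set, on the log2 scale. Of 37 members 22 were above 0 in the first set (59.5%, against 49.1% of all genes tested) and the median was 0.09, against -0.01 for all genes. For 3M, 20 of 36 were above 0 (55.6%, against 48.0% of all genes) and the median was 0.06, against -0.02 for all genes. The 95% interval lay wholly below a 2-fold rise for 33 of 37 members in the first set and for 25 of 36 in the 3M set. Most genes did the same, with 18410 of all 22965 tested in the first set and 8921 of 13925 in the 3M set.

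Groups free of overlap were few. All 3 Chaf1a cko libraries of the first set lay above all 3 Ctrl libraries for 5 members (Ccng1, Ckap2, Bax, Eda2r and Zmat3), or 13.5% of members, against 8.33% of all genes. They lay below for Btg2 alone, against 7.85% of all genes. Chaf1a cko 3M libraries lay above all Ctrl 3M libraries for 6 members (Gadd45a, Cdkn2a, Ptp4a3, Fas, Abhd4 and Tigar), or 16.7% of members, against 7.21% of all genes. They lay below for Psrc1 and Apaf1, against 6.89% of all genes. Cdkn2a was near the limit of detection in the 3M set, with 16, 20 and 12 counts in Chaf1a cko 3M and 0, 12 and 9 in Ctrl 3M. No member was separated in the same direction in both sets.

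RNA of the targeted gene did not fall in libraries that carry the cko label. Chaf1a had 29.0, 24.5 and 21.95 CPM in Chaf1a cko and 22.7, 32.3 and 18.8 CPM in Ctrl, a log2 fold change of 0.03 (SE 0.18, adjusted p = 0.981). Its 3M values were 8.34, 5.58 and 5.54 CPM in Chaf1a cko 3M and 1.88, 4.74 and 9.75 CPM in Ctrl 3M, a log2 fold change of 0.25 (SE 0.61, adjusted p = 0.952). In the first set its level was 2.84 CPM per kilobase of exon in Chaf1a cko and 2.78 in Ctrl. Both are close to 2.77, the level of background reads described below, and the part of background in these values was not tested. Which exons are deleted is not known from the labels, so gene counts do not check the deletion. Library totals were 15068468 to 20896673 counts in the first set and 10569325 to 16445963 counts in the 3M set. Cardiomyocyte markers were abundant in every library. Their summed level was 90095 to 93912 CPM in Chaf1a cko against 99206 to 100470 CPM in Ctrl, and 51854 to 55831 CPM in Chaf1a cko 3M against 32658 to 43057 CPM in Ctrl 3M. Single markers of this list differed in direction in the first set. By edgeR's adjusted p, 4 of 10 fell (Myh6, Ttn, Ryr2 and Actc1) and 2 rose (Mybpc3 and Myl3), and the median log2 fold change was 0.04. The sum there rests mostly on Myh6, with means of 37062 CPM in Chaf1a cko and 40460 CPM in Ctrl, and on Ttn, with 33349 CPM in Chaf1a cko and 36142 CPM in Ctrl. In the 3M set 7 of 10 were above 0 and none was called by edgeR, while 4 were higher at an unadjusted p under 0.05.

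Other markers also separated the groups. In the first set all 4 Y-linked genes measured rose by edgeR's adjusted p. Their summed level was 111 to 135 CPM in Chaf1a cko against 50.7 to 60.6 CPM in Ctrl. Per kilobase of exon, Uty (1.91 CPM in Chaf1a cko, 0.793 in Ctrl) and Kdm5d (0.944 and 0.381) lay under the background level of 2.77 described below. Ddx3y (12.5 and 5.81) lay above it in both groups, and Eif2s3y (6.05 and 2.56) in Chaf1a cko alone. In the 3M set the Y-linked sum lay the other way, at 354.6 to 397.8 CPM in Chaf1a cko 3M against 403.99 to 643.9 CPM in Ctrl 3M. None of these genes was called there by edgeR, and Ddx3y alone did not overlap, with a mean of 137.3 CPM in Chaf1a cko 3M and 290 CPM in Ctrl 3M (unadjusted p = 0.00219, adjusted p = 0.554). In the first set Xist had 262 to 325 CPM in Chaf1a cko and 294 to 630 CPM in Ctrl. Its 3M values were 0 to 3.97 CPM in Chaf1a cko 3M and 0 to 0.304 CPM in Ctrl 3M. Of 10 fibroblast markers in the first set, 5 fell and none rose by edgeR's adjusted p. At an unadjusted p under 0.05, 7 of them were lower and 1 was higher (Tcf21, log2 fold change 0.63, adjusted p = 0.177). Their first-set sum was 2950 to 3032 CPM in Chaf1a cko against 3671 to 3730 CPM in Ctrl. The first-set sum of 10 mural and smooth muscle markers was 1691 to 1770 CPM in Chaf1a cko against 1631 to 1690 CPM in Ctrl. Among these, Cnn1 was higher and Myh11 lower by edgeR's adjusted p. Of 10 macrophage and myeloid markers 5 had, in the 3M set, an unadjusted p under 0.05, all with lower values and none past edgeR's adjusted threshold, and the sum of the list was 282 to 351 CPM in Chaf1a cko 3M against 457 to 531 CPM in Ctrl 3M. Each of the sums without overlap, the cardiomyocyte ones included, has an exact two-sided permutation p of 0.1, the smallest that 3 against 3 libraries allow. No marker of these lists was at 0 in all libraries. The part of sex, of other cell types and of cardiomyocyte marker levels in the members' values was not tested. In bulk RNA, fewer cells of a type and less RNA per cell cannot be told apart.

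The p53 response element is a pair of 10-base motifs, separated by 0 to 13 bases. Its consensus, which reads alike on both strands, was searched in RefSeq promoter windows of GRCm38.p6 (250 bases before to 50 after each annotated start). Windows existed for 28 of the 37 members, without Ptp4a3, Pmaip1, Perp, Tnfrsf10b, Trp53inp1, Zmat3, Xpc, Ddb2 and Rrm2b. A full element was found for 1 member, Cdkn1a (3.57%), and for 8 of 17869 tested genes with a window (0.0448%). At least 1 single motif was found in 12 members (42.9%), against 8.61% of those genes. Some genes have more than 1 window, and a gene was counted if any of its windows matched. The 28 members have 38 windows. The Cdkn1a element is in the window at chr17:29090729-29091028, while the Cdkn1a window at chr17:29093519-29093818 has no motif. The sequences are shown for the members whose values are described most closely below, 5′ to 3′ on the gene's strand, with motif bases in capitals. They lie at chr17:29090891-29090952 (plus strand) for Cdkn1a, with 12 bases between the motifs, and at chr10:117710915-117710964 for Mdm2, chr11:40755442-40755491 for Ccng1, chr7:45467070-45467119 for Bax, chr8:22185993-22186042 for Ckap2 and chr6:67037418-67037467 for Gadd45a, all on the minus strand.
Cdkn1a: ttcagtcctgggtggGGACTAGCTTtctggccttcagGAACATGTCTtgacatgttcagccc
Mdm2: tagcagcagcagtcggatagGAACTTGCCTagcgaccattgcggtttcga
Ccng1: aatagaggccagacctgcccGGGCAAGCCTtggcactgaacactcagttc
Bax: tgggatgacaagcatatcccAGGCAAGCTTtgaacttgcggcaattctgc
Ckap2: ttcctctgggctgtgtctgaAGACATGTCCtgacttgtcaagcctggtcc
Gadd45a: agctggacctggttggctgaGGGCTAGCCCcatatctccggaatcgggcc
Only exact matches to the consensus were marked. Directly after the second marked motif of Cdkn1a lie 10 bases that miss the consensus at their first base alone. The marked pair is therefore not the only candidate there, and which bases p53 binds was not tested. A match describes letters in a window and does not show binding. The well-known mouse Mdm2 response elements lie in the first intron, outside these windows.

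Both genes that feed back on p53 were above 0 in the first set, and neither passed the adjusted threshold. Mdm2, the ubiquitin ligase of p53, had 48.3, 87.99 and 92.6 CPM in Chaf1a cko and 56.7, 53.2 and 45.8 CPM in Ctrl. Chaf1a cko replicates 2 and 3 stood above every Ctrl library, while replicate 1 lay within the Ctrl range. The log2 fold change was 0.56 (SE 0.27, 95% interval -0.14 to 1.26, adjusted p = 0.603). Without Chaf1a cko replicate 1 it was 0.80 (SE 0.11, adjusted p = 0.00151), and Mdm2 was the only member called under any alternative. Ccng1 encodes cyclin G1, which recruits a phosphatase to Mdm2. It had 146, 156 and 133.8 CPM in Chaf1a cko and 129, 119.6 and 119.7 CPM in Ctrl, and all Chaf1a cko libraries were higher. Its log2 fold change of 0.24 (SE 0.07, 95% interval 0.09 to 0.39) had the smallest adjusted p of all members in the first set, 0.147.

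In the 3M set the feedback genes were not separated. Mdm2 had 109, 99.6 and 102 CPM in Chaf1a cko 3M and 91.1, 133.6 and 125.5 CPM in Ctrl 3M, a log2 fold change of -0.17 (SE 0.20, adjusted p = 0.887). Ccng1 had 512, 331 and 285 CPM in Chaf1a cko 3M and 309.6, 295 and 301 CPM in Ctrl 3M. Its Chaf1a cko 3M replicate 1 stood far above the rest, and the log2 fold change was 0.32 (SE 0.24, adjusted p = 0.821).

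**Figure D2:**
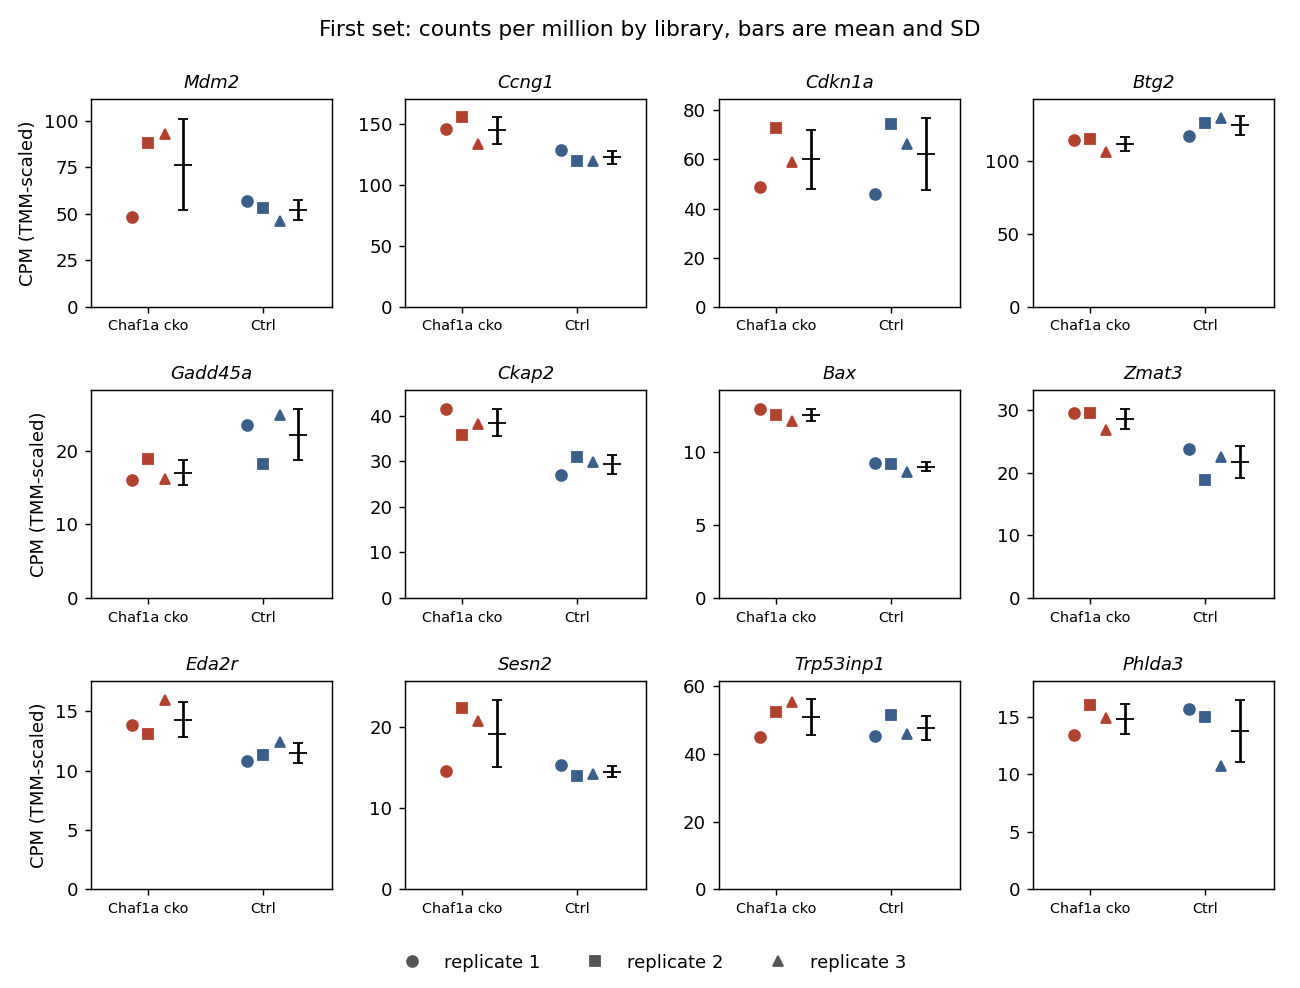
First set: TMM-scaled CPM of 12 members in each library (points, shape gives the replicate number), Chaf1a cko left of Ctrl, with mean and SD as bars (n = 3). For Mdm2 and Sesn2, Chaf1a cko replicate 1 lies near the Ctrl libraries while replicates 2 and 3 lie above them.

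Members listed under cell cycle arrest had mixed signs. Of 9 members, 3 were above 0 and 6 below in the first set, with a median log2 fold change of -0.05. Those above 0 were the spindle genes Ckap2 and Psrc1, and Cdkn2a, which acts upstream of p53. In the 3M set 4 were above 0 and 5 below, with a median of -0.12. Cdkn1a encodes p21, the kinase inhibitor through which p53 halts the cell cycle. It is the member with a full element in 1 of its windows. It had 48.8, 72.7 and 58.9 CPM in Chaf1a cko and 46.1, 74.6 and 66.1 CPM in Ctrl. The groups overlapped almost fully, and the log2 fold change was -0.05 (SE 0.21, 95% interval -0.54 to 0.44). Cdkn1a in the 3M set had 65.0, 130.6 and 17.8 CPM in Chaf1a cko 3M and 209, 144 and 79.5 CPM in Ctrl 3M. The lowest library of all was Chaf1a cko 3M replicate 3 and the highest was Ctrl 3M replicate 1. The log2 fold change of -1.02 (SE 0.75, 95% interval -2.88 to 0.84) was not distinguishable from 0 at this spread.

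Gadd45a had the smallest unadjusted p of the members for a difference of effect between the sets, without passing the adjusted threshold. It had 16.1, 19.0 and 16.2 CPM in Chaf1a cko and 23.5, 18.3 and 24.9 CPM in Ctrl, a log2 fold change of -0.38 (SE 0.17, adjusted p = 0.463). Only Chaf1a cko replicate 2 and Ctrl replicate 2 overlapped. For Gadd45a the 3M set gave 12.3, 12.3 and 18.5 CPM in Chaf1a cko 3M and 6.75, 10.6 and 6.23 CPM in Ctrl 3M, with no overlap and a log2 fold change of 0.87 (SE 0.36, adjusted p = 0.712). The 3M effect minus the first-set effect was 1.28 on the log2 scale (SE 0.37, unadjusted p = 0.00503, adjusted p = 0.390). For this difference 3 of 37 members had an unadjusted p under 0.05, where 9.47% of all genes did.

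Btg2, an antiproliferative adaptor of mRNA decay, had 115, 115 and 106 CPM in Chaf1a cko and 117, 127 and 130 CPM in Ctrl. All Chaf1a cko libraries were lower, though the highest Chaf1a cko and the lowest Ctrl library were close, and the log2 fold change was -0.16 (SE 0.07, adjusted p = 0.466). Its 3M groups overlapped, with 51.0, 87.8 and 100.4 CPM in Chaf1a cko 3M and 79.5, 87.7 and 52.0 CPM in Ctrl 3M. Plk3, a stress-responsive polo-like kinase, had 23.0, 29.2 and 28.4 CPM in Chaf1a cko and 30.0, 31.4 and 28.6 CPM in Ctrl. Plk3 in the 3M set had 14.997, 10.52 and 6.11 CPM in Chaf1a cko 3M and 27.4, 14.4 and 28.9 CPM in Ctrl 3M. Chaf1a cko 3M replicate 1 lay just above Ctrl 3M replicate 2, and the log2 fold change was -1.16 (SE 0.41, 95% interval -2.10 to -0.23, adjusted p = 0.662). This was the smallest adjusted p of any member in the 3M set.

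Ckap2, a spindle-associated protein that is abundant in dividing cells, had 41.6, 35.8 and 38.2 CPM in Chaf1a cko and 27.0, 31.0 and 30.0 CPM in Ctrl. Every Chaf1a cko library was higher, and the log2 fold change was 0.39 (SE 0.12, 95% interval 0.13 to 0.65, adjusted p = 0.204). Ckap2 in the 3M set was near the limit of detection, with 0.37, 1.28 and 2.42 CPM in Chaf1a cko 3M and 0, 0.95 and 5.51 CPM in Ctrl 3M. The count of 0 in Ctrl 3M replicate 1 allows up to 0.266 CPM (3 counts, counting error only). Psrc1, another spindle gene, had a log2 fold change of 0.31 in the first and -1.11 (SE 1.39) in the 3M set, where it had 0 counts in Chaf1a cko 3M replicate 3, which allows up to 0.194 CPM. The remaining arrest genes, the polo-like kinase Plk2 and the phosphatase Ptp4a3, had log2 fold changes of -0.06 and -0.05 in the first set and of -0.12 and 0.25 in the 3M set. Cdkn2a, which acts upstream of p53 through its Arf product and shares exons between its 2 products, had at most 1.73 CPM in any library. Its interval spanned -1.91 to 2.21 in the first set and -2.07 to 4.61 in the 3M set.

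Cell death genes were above 0 in the first set for 10 of 14 members, with a median log2 fold change of 0.10. Bax, which opens the outer mitochondrial membrane, had 12.99, 12.54 and 12.1 CPM in Chaf1a cko and 9.23, 9.16 and 8.65 CPM in Ctrl. The groups were well apart and each was tight, with means of 12.6 ± 0.428 CPM in Chaf1a cko and 9.01 ± 0.318 CPM in Ctrl (SD, n = 3). The log2 fold change was 0.48 (SE 0.20, 95% interval 0.06 to 0.90, adjusted p = 0.422). Bax in the 3M set had 63.2, 90.5 and 85.9 CPM in Chaf1a cko 3M and 89.9, 75.7 and 65.1 CPM in Ctrl 3M, a log2 fold change of 0.06 (SE 0.22). The 3M groups overlapped throughout.

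Zmat3, an RNA-binding protein that shapes splicing downstream of p53, had 29.5, 29.5 and 26.7 CPM in Chaf1a cko and 23.8, 18.9 and 22.5 CPM in Ctrl. It did not overlap in the first set, where the log2 fold change was 0.40 (SE 0.15, adjusted p = 0.317). Its 3M values were 12.6, 15.3 and 7.13 CPM in Chaf1a cko 3M and 16.7, 9.36 and 11.6 CPM in Ctrl 3M, which overlapped. Eda2r, a receptor of the tumour necrosis factor family, had 13.9, 13.1 and 16.0 CPM in Chaf1a cko and 10.8, 11.3 and 12.4 CPM in Ctrl. These did not overlap either, and the log2 fold change was 0.32 (SE 0.19, adjusted p = 0.644). Eda2r in the 3M set had 7.69, 11.6 and 13.6 CPM in Chaf1a cko 3M and 10.2, 12.4 and 10.9 CPM in Ctrl 3M, with both groups overlapping.

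A background of reads limits the low members of the first table. The 1506 chemoreceptor genes used here encode olfactory, vomeronasal and trace amine receptors. Between 94.8% and 97.7% of them had counts in each first-set library, against 1.13% to 1.66% in the 3M libraries. The 95th percentile of their mean level in the first set was 2.77 CPM per kilobase of exon. By their mean over both groups, 30 members were above that level and 7 were below it (Psrc1, Rrm2b, Zmat3, Eda2r, Ddit4l, Ddb2 and Cdkn2a). Zmat3 had 2.498 CPM per kilobase in Chaf1a cko and 1.90 in Ctrl, and Eda2r had 2.43 in Chaf1a cko and 1.95 in Ctrl, so both sat within that background range.

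**Figure D3:**
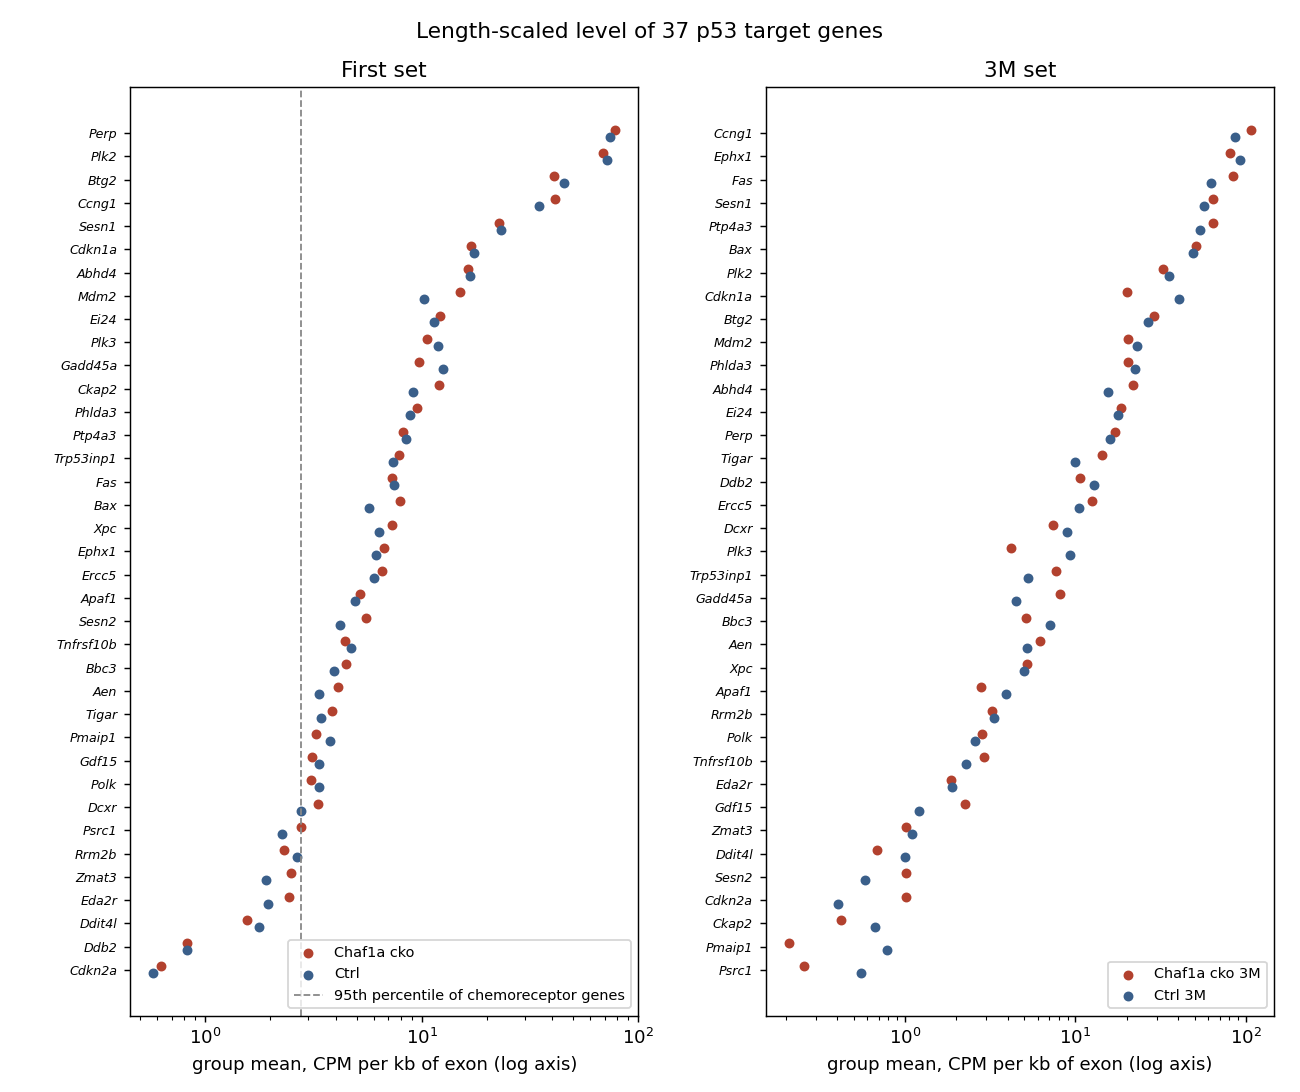
Mean level of each member per kilobase of exon (CPM per kb, log axis) by group in each set. In the first set the dashed line marks the 95th percentile of chemoreceptor genes, 2.77 CPM per kb, and 7 members lie below it by their mean over both groups.

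Other death genes had non-overlapping groups in the 3M set. Apaf1, the scaffold of the apoptosome, had 53.1, 40.3 and 47.8 CPM in Chaf1a cko and 46.8, 49.0 and 37.01 CPM in Ctrl, with overlap. Apaf1 in the 3M set had 25.4, 26.1 and 24.1 CPM in Chaf1a cko 3M and 35.2, 36.9 and 33.3 CPM in Ctrl 3M. All Chaf1a cko 3M libraries were lower, with a log2 fold change of -0.48 (SE 0.20, 95% interval -0.95 to -0.02, adjusted p = 0.712). Fas, a death receptor, had 13.3, 19.1 and 12.5 CPM in Chaf1a cko and 14.4, 18.2 and 13.5 CPM in Ctrl. Fas in the 3M set had 182, 181 and 157 CPM in Chaf1a cko 3M and 134.1, 151 and 101 CPM in Ctrl 3M, all higher, with a log2 fold change of 0.43 (SE 0.21, adjusted p = 0.731). Abhd4, a lipid hydrolase linked to the death of detached cells, had 46.7, 56.9 and 57.9 CPM in Chaf1a cko and 58.8, 53.3 and 52.9 CPM in Ctrl. Its 3M values were 66.7, 68.7 and 78.2 CPM in Chaf1a cko 3M and 43.5, 58.7 and 51.3 CPM in Ctrl 3M, again all higher, with a log2 fold change of 0.48 (SE 0.20, adjusted p = 0.712).

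Trp53inp1, a p53 cofactor, showed 1 library that stood apart. It had 45.0, 52.5 and 55.5 CPM in Chaf1a cko and 45.4, 51.6 and 45.8 CPM in Ctrl, a log2 fold change of 0.10 (SE 0.11). Its 3M values were 58.7, 46.5 and 44.6 CPM in Chaf1a cko 3M and 51.8, 2.49 and 48.3 CPM in Ctrl 3M. Ctrl 3M replicate 2 was low while the other 3M libraries lay close together, and the log2 fold change of 0.55 (SE 0.98) was -0.0024 without that library. Phlda3, an inhibitor of AKT signalling, had 13.4, 16.0 and 14.9 CPM in Chaf1a cko and 15.7, 14.95 and 10.7 CPM in Ctrl. Its 3M values were 17.5, 31.1 and 46.1 CPM in Chaf1a cko 3M and 35.3, 34.6 and 35.0 CPM in Ctrl 3M, with a wide Chaf1a cko 3M group around a tight Ctrl 3M group.

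The other death genes gave no separated groups. Bbc3 and Pmaip1, the BH3-only proteins PUMA and NOXA, had log2 fold changes of 0.19 and -0.21 in the first set. Bbc3 had -0.47 (SE 0.35) in the 3M set, and Pmaip1 had at most 5.92 CPM there. The nuclease gene Aen had 0.29 in the first and 0.26 in the 3M set, and Ei24, an endoplasmic reticulum membrane protein, had 0.09 and 0.06. Perp, a membrane protein of desmosomes, had 0.08 and 0.10, and the death receptor gene Tnfrsf10b had -0.10 and 0.34. All of these log2 fold changes had intervals that included 0.

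**Figure D4:**
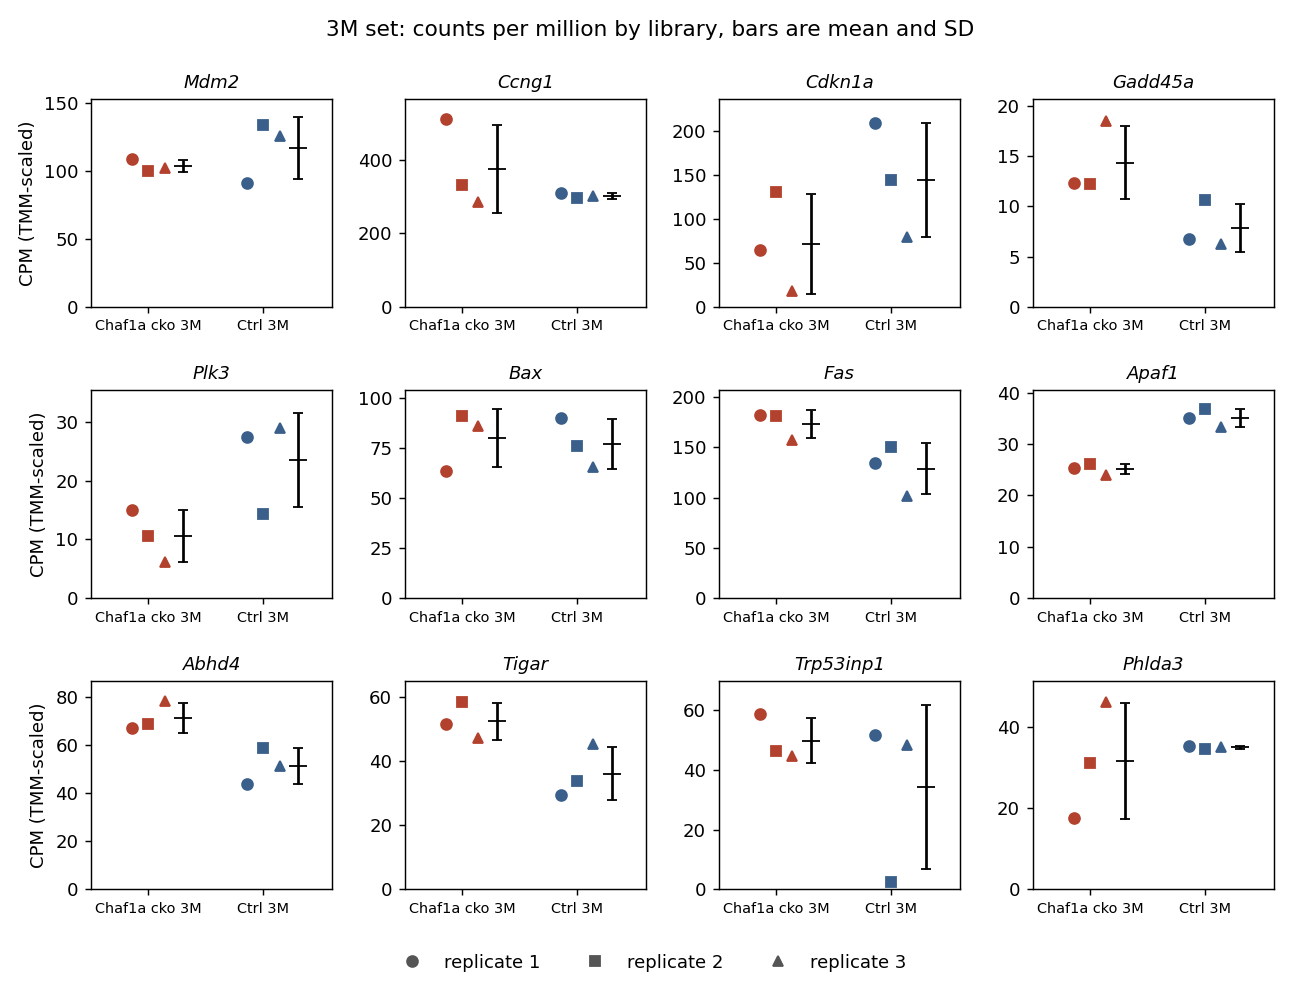
3M set: TMM-scaled CPM of 12 members in each library (points, shape gives the replicate number), Chaf1a cko 3M left of Ctrl 3M, with mean and SD as bars (n = 3). The groups do not overlap for Gadd45a, Fas, Apaf1, Abhd4 and Tigar, and Trp53inp1 in Ctrl 3M replicate 2 lies at 2.49 CPM.

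Repair and nucleotide genes gave no separated groups in either set. Of 5 members, 3 were above 0 in each set, and none had an unadjusted p under 0.05. Xpc, which recognises damage in nucleotide excision repair, had the highest log2 fold change of these in the first set, 0.20 (SE 0.13, 95% interval -0.06 to 0.46). Ercc5, the excision endonuclease XPG, had 0.13 in the first and 0.24 in the 3M set. Polk, a polymerase that copies past lesions, had -0.12 and 0.14, and Rrm2b, a p53-inducible subunit of ribonucleotide reductase, had -0.21 and -0.03. Ddb2, a sensor of ultraviolet lesions, had 0.02 (SE 0.51) in the first set at a mean of 2.25 CPM in both groups, and -0.26 (SE 0.50) in the 3M set.

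Metabolic and growth-signalling targets had mixed signs, with 4 of 7 above 0 in each set. At an unadjusted p under 0.05, 1 of the 7 was higher in each set, where 5.63% of all genes were in the first and 3.2% in the 3M set. Sesn2, a stress-induced inhibitor of mTORC1, had 14.6, 22.3 and 20.7 CPM in Chaf1a cko and 15.3, 14.02 and 14.2 CPM in Ctrl. As for Mdm2, Chaf1a cko replicates 2 and 3 were above all Ctrl libraries and replicate 1 was among them, with a log2 fold change of 0.40 (SE 0.19, adjusted p = 0.477). Chaf1a cko replicate 1 was the lowest of its group for 22 of the 37 members, replicate 2 for 4 and replicate 3 for 11. The same count was not made over all genes, so it is not shown to be particular to the members. Tigar, which lowers glycolytic flux and limits oxidative stress, had 13.1, 14.2 and 14.996 CPM in Chaf1a cko and 11.7, 12.2 and 13.6 CPM in Ctrl. Tigar in the 3M set had 51.6, 58.7 and 47.2 CPM in Chaf1a cko 3M and 29.4, 33.7 and 45.3 CPM in Ctrl 3M. Every Chaf1a cko 3M library was higher, with a log2 fold change of 0.54 (SE 0.23, 95% interval 0.01 to 1.07, adjusted p = 0.712).

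Gdf15, a secreted stress hormone, had 5.53, 6.16 and 5.67 CPM in Chaf1a cko and 2.81, 7.86 and 8.03 CPM in Ctrl. Its 3M values were 3.00, 2.82 and 6.62 CPM in Chaf1a cko 3M and 1.97, 1.24 and 3.52 CPM in Ctrl 3M. Both sets overlapped, and the log2 fold changes were -0.12 (SE 0.33) and 0.89 (SE 0.72, 95% interval -0.75 to 2.53). Sesn1 had -0.03 in the first and 0.17 in the 3M set, where Ctrl 3M libraries ran from 101 to 367 CPM. The epoxide hydrolase gene Ephx1 had 0.13 and -0.19, the xylulose reductase gene Dcxr had 0.25 and -0.28, and Ddit4l, an mTORC1 inhibitor, had -0.19 and -0.54, all with intervals that included 0.

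Levels per length set the order of the members within each table. By the mean over both groups, the highest in the first set were Perp, with 78.5 CPM per kilobase in Chaf1a cko and 74.3 in Ctrl, Plk2, with 69.1 in Chaf1a cko and 71.8 in Ctrl, and Btg2, with 40.8 in Chaf1a cko and 45.4 in Ctrl. By the same mean the highest of the 3M set were Ccng1, with 107 CPM per kilobase in Chaf1a cko 3M and 86.0 in Ctrl 3M, Ephx1, with 80.4 in Chaf1a cko 3M and 91.7 in Ctrl 3M, and Fas, with 84.0 in Chaf1a cko 3M and 62.4 in Ctrl 3M. Exons of 9 members (Cdkn1a, Gadd45a, Plk3, Bax, Ei24, Ddb2, Rrm2b, Tigar and Ephx1) overlap exons of another annotated gene. No source used here states whether counting used strand, so reads of such pairs may be mixed.

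Whether the genotype effect differed between the sets was tested in a fit of all 12 libraries. Of 37 members 0 passed the adjusted threshold in edgeR, where 0.0658% of 22803 genes did, and 3 had an unadjusted p under 0.05 (Gadd45a, Abhd4 and Apaf1), against 9.47% of all genes. Abhd4 was 0.54 higher on the log2 scale in the 3M effect (SE 0.20, adjusted p = 0.485). The difference for Apaf1 was -0.53 (SE 0.22, adjusted p = 0.526). limma voom with quality weights also called 0 members.

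The 151 genes of the pathway lists gave 2 calls in the first set, where 1.18% of all genes tested were called. These were Ppp1r13l and Cenpf, a gene of the cell cycle list described below. Trp53 itself had 26.9, 26.3 and 24.5 CPM in Chaf1a cko and 19.1, 29.5 and 24.2 CPM in Ctrl, a log2 fold change of 0.09 (SE 0.16). Trp53 in the 3M set had 38.8, 56.5 and 59.1 CPM in Chaf1a cko 3M and 64.9, 52.0 and 53.8 CPM in Ctrl 3M, a log2 fold change of -0.14 (SE 0.23). Neither set separated the groups. Ppp1r13l, which encodes the p53 inhibitor iASPP, was the 1 called gene of 21 on the list of p53 and its regulators (1.18% of all genes were called). Of the 21, 11 were above 0, with a median log2 fold change of 0.04. At an unadjusted p under 0.05, 5 were higher (Mdm4, Ppm1d, Brd7, Daxx and Rpl5), or 23.8% against 5.63% of all genes, and 2 were lower (Ppp1r13l and Crebbp), or 9.52% against 4.5%. Ppp1r13l fell to 35.9, 30.2 and 40.0 CPM in Chaf1a cko, against 53.5, 50.6 and 49.2 CPM in Ctrl, with a log2 fold change of -0.53 (SE 0.12, adjusted p = 0.0346). The call was lost when any library other than Chaf1a cko replicate 3 was left out, with adjusted p from 0.0441 to 0.194 over the 6 omissions. Ppp1r13l in the 3M set had 52.5, 70.6 and 74.7 CPM in Chaf1a cko 3M and 40.2, 54.6 and 48.1 CPM in Ctrl 3M, a log2 fold change of 0.47 (SE 0.22, adjusted p = 0.731). The 3M effect of Ppp1r13l minus its first-set effect was 1.04 (SE 0.24, unadjusted p = 0.00130, adjusted p = 0.239). Mdm4, which binds and inhibits p53, had 68.7, 53.7 and 55.2 CPM in Chaf1a cko and 38.1, 58.5 and 43.6 CPM in Ctrl, a log2 fold change of 0.34 (SE 0.15, adjusted p = 0.458).

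Cell cycle genes that p53 lowers through p21 and the DREAM repressor complex were above 0 in the first set for 20 of 20 listed genes. Their median log2 fold change was 0.37, against -0.01 over all genes. At an unadjusted p under 0.05, 12 were higher, or 60% against 5.63% of all genes, and 12 had non-overlapping higher values, against 8.33%. The list was chosen with earlier results of these data known, so these counts describe it and are not an independent test. The Y-linked and fibroblast marker differences given above stand in the same libraries, and their part in this was not tested. By edgeR's adjusted p 1 of them rose, the kinetochore gene Cenpf. It had 301, 299 and 310.5 CPM in Chaf1a cko and 254, 254 and 259.9 CPM in Ctrl, a log2 fold change of 0.25 (SE 0.05, adjusted p = 0.0141). The Cenpf call was lost without Chaf1a cko replicate 1, 2 or 3 or Ctrl replicate 2, with adjusted p from 0.0398 to 0.109 over the 6 omissions. DESeq2 called 10 of the 20 higher (Aurkb, Bub1, Bub1b, Ccna2, Ccnb1, Cdk1, Cenpf, Foxm1, Kif23 and Plk4), so the list had 1 call with edgeR and 10 with DESeq2. All 20 stayed above 0 under each other scaling and without any 1 library. Of the 17 tested in the 3M set 9 were above 0, none was called by edgeR or DESeq2 and 1 had an unadjusted p under 0.05. That was Cenpf, with 35.7, 5.005 and 9.04 CPM in Chaf1a cko 3M and 1.501, 4.26 and 2.72 CPM in Ctrl 3M, a log2 fold change of 2.53 (SE 0.79, adjusted p = 0.620), or 1.30 without Chaf1a cko 3M replicate 1.

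**Figure D5:**
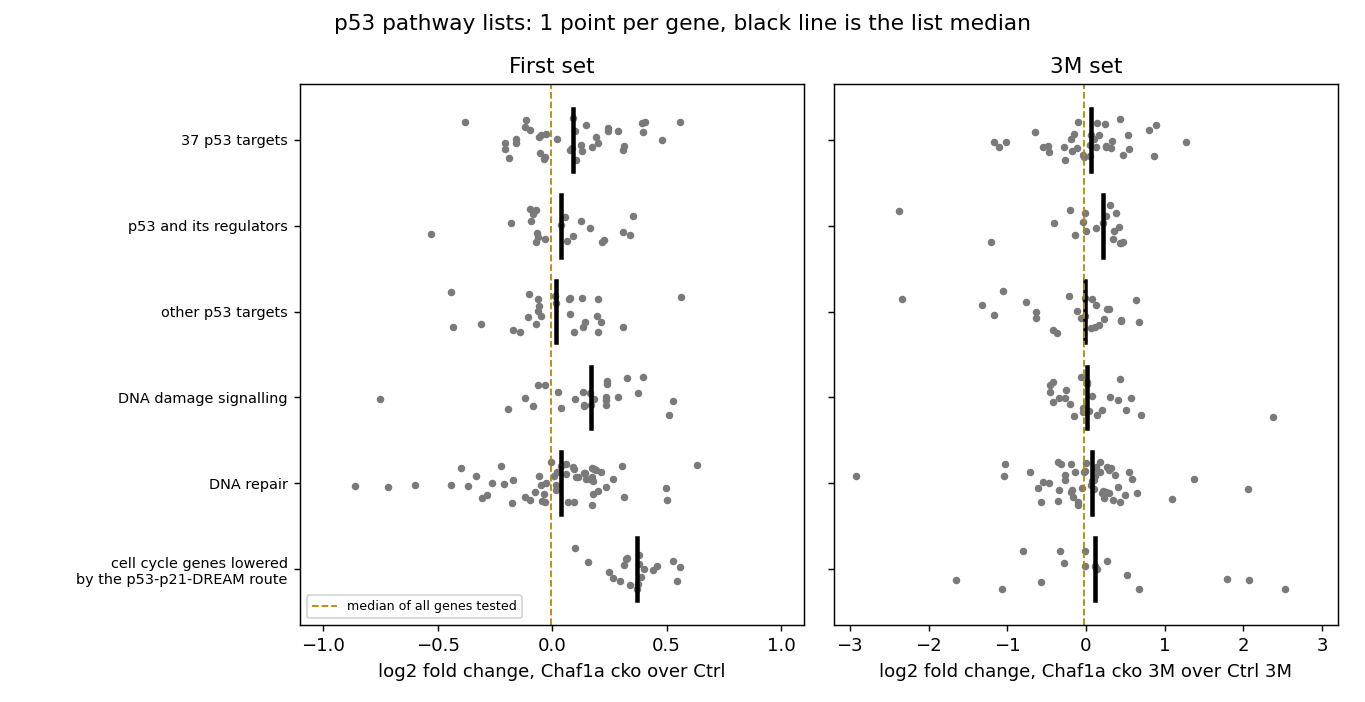
Log2 fold change of every gene of the 5 pathway lists and of the members, Chaf1a cko over Ctrl in the left panel and Chaf1a cko 3M over Ctrl 3M in the right panel, with the median of each list as a bar. The 20 genes of the p53-p21-DREAM route all lie above 0 in the left panel, and 9 of 17 do in the right panel.

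DNA damage signalling genes were above 0 in the first set for 20 of 26 (76.9%), with a median log2 fold change of 0.17, against 49.1% above 0 and a median of -0.01 over all genes. By edgeR's adjusted p 0 passed, while 3 were higher at an unadjusted p under 0.05, or 11.5% against 5.63% of all genes. Those were the ATR activator gene Topbp1 (0.29, SE 0.08, adjusted p = 0.126), the checkpoint kinase gene Wee1 (0.40, SE 0.14) and the Chk1 adaptor gene Clspn (0.37, SE 0.13). DNA repair genes were above 0 for 33 of 57 (57.9%), with a median of 0.04. At an unadjusted p under 0.05, 5 were higher, or 8.77% against 5.63% of all genes, and none was lower, against 4.5%. The smallest belonged to Rbbp8, which starts end resection (0.31, SE 0.11), the ubiquitin ligase gene Rad18 (0.63, SE 0.22) and Rad23b (0.17, SE 0.06). Of 27 other p53 targets 15 were above 0, with a median of 0.02. The smallest p-values there belonged to Sertad1 (-0.44, SE 0.14), the p53-induced noncoding RNA gene Trp53cor1 (-0.43, SE 0.18) and Zfp365 (0.57, SE 0.30). DESeq2 called Topbp1 (adjusted p = 0.0327).

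In the 3M set none of these 3 lists had a called gene by edgeR or DESeq2. Of 25 DNA damage signalling genes 13 were above 0, and the smallest p-values belonged to Timeless (-0.46, SE 0.21), Mre11a (0.70, SE 0.34) and Mdc1 (-0.41, SE 0.24). Of 53 repair genes 29 were above 0 and 1 had an unadjusted p under 0.05, Polh, a translesion polymerase and p53 target. Polh had 6.37, 6.74 and 7.77 CPM in Chaf1a cko 3M and 14.8, 14.2 and 14.1 CPM in Ctrl 3M, without overlap, and a log2 fold change of -1.05 (SE 0.31, adjusted p = 0.604). Lig4 (-2.93, SE 1.31) and Fancb (-0.71, SE 0.38) came next. Of 26 other p53 targets 12 were above 0. Rap2b had a log2 fold change of -1.32 (SE 0.36, adjusted p = 0.593), Rps27l had -0.64 (SE 0.19, adjusted p = 0.607) and Thbs1 had -2.33 (SE 1.28).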

How the data were processed

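The authors deposited whole-number counts per gene symbol, not normalized, in 2 tables of 6 libraries each. Per the labels, libraries were stranded, made after ribosomal RNA depletion, and of 1 batch. Per the submitters' processing notes, FastQC, Trimmomatic, HISAT2 and mm10 were used. No source used here gives the counting program, its annotation or strand setting.

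Each table was fitted whole in R 4.3.3 with edgeR 4.0.16 (filterByExpr with a minimum count of 10 and a total of 15, TMM, robust glmQLFit, two-sided glmQLFTest, Benjamini-Hochberg adjustment over all genes tested, threshold 0.05). A fit of 12 libraries tested the interaction of genotype with set. DESeq2 1.42.0 and limma 3.58.1 gave alternatives. Steps were tested on simulated data. Library values are TMM-scaled CPM, and marker sums are CPM of the library total. Intervals (95%) cover both counting error and library spread. Exon lengths came from GENCODE M21 (98.0% of symbols), and names and promoters from RefSeq GRCm38.p6 (99.6% of symbols). Replicate numbers were not taken to pair libraries, since no same-numbered pair correlated above 0.1. This cutoff cannot show that the 3M libraries were unpaired, and every same-numbered correlation there was positive.

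The members and lists were chosen with earlier results of these data known. Library values are given for called members, for Cdkn1a, Mdm2, Ccng1, Bax, Trp53inp1, Phlda3, Eda2r and Gdf15, and for the 6 members with the smallest p in each set. Sesn2 in the first set, Psrc1, Cdkn2a and Sesn1 were added after their values were seen. Of the other lists, Trp53, Mdm4, called genes or the 3 with the smallest p are named. Genes named beside a count of unadjusted p-values, of DESeq2 calls or of markers are those counted, and Ddx3y and Tcf21 were named after their values were seen.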

Additional observations from a re-analysis of the deposited data

How the results depend on the processing

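No member was called in the first set, the 3M set or their difference under another scaling, filter or test, and leaving out 1 library gave 0 to 1 called member in the first set (Mdm2) and 0 in the 3M set and the difference. All genes called in the first set numbered 270, against 479 with the DESeq2 Wald test and 128 to 201 without 1 library. In the 3M set 2 genes were called, against 72 with DESeq2, 6 with no filter and 0 to 5 without 1 library. The difference between the sets called 15 genes, against 7 by library size alone, 6 with no filter, 55 with limma voom and 1 to 110 without 1 library, the highest without Ctrl 3M replicate 2. Pathway genes called in the first set numbered 2, against 12 with DESeq2 and 0 to 2 without 1 library. The cause was not tested. The replicate block left 192 genes called in the first set, of which 1 was a pathway gene, and 0 in the 3M set. Under it Ppp1r13l had an adjusted p of 0.0612, Cdkn2a in the first set turned to -0.56 (0.15 without the block) and Ckap2 in the 3M set to 0.52 (-0.65 without it). Whether same-numbered libraries share more than a number is not known. In the 3M set each library correlated best with its own number (0.045, 0.065 and 0.033 for replicates 1, 2 and 3), and in the first set not. Under the block Mdm4 in the 3M set had a log2 fold change of 0.50 (SE 0.24), against 0.31 (SE 2.20) without it. By library size alone Rrm2b in the 3M set was 0.0029 against -0.03. Of 37 members 22 kept their sign in the first set when any 1 library was left out, and 20 of 36 did in the 3M set.

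The log2 fold changes that turned sign without 1 library ranged as follows. First-set ranges were Cdkn1a -0.22 to 0.096, Cdkn2a -1.43 to 0.71, Bbc3 -0.024 to 0.39, Fas -0.25 to 0.10, Tnfrsf10b -0.26 to 0.048, Apaf1 -0.026 to 0.19, Phlda3 -0.050 to 0.21, Abhd4 -0.085 to 0.059, Ddb2 -0.33 to 0.59, Polk -0.33 to 0.12, Rrm2b -0.48 to 0.042, Sesn1 -0.080 to 0.071, Ddit4l -0.45 to 0.027, Gdf15 -0.46 to 0.11, Dcxr -0.016 to 0.45, Trp53 -0.054 to 0.25. The 3M ranges were Btg2 -0.073 to 0.37, Ckap2 -1.36 to 1.47, Bax -0.053 to 0.20, Perp -0.029 to 0.25, Eda2r -0.21 to 0.17, Aen -0.0098 to 0.42, Ei24 -0.11 to 0.17, Phlda3 -0.52 to 0.14, Trp53inp1 -0.0024 to 0.98, Zmat3 -0.35 to 0.15, Xpc -0.12 to 0.21, Ddb2 -0.60 to 0.29, Polk -0.21 to 0.42, Rrm2b -0.25 to 0.14, Sesn1 -0.18 to 0.71, Ddit4l -1.18 to 0.11, Trp53 -0.25 to 0.025, Mdm4 -3.50 to 4.39.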

Other observations

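Some p53 pathway genes in the 3M set differed by 10 times or more between libraries of 1 group. This held for 258 of 9847 genes with a mean of at least 10 CPM (2.62%), against 17 of 10199 in the first set (0.167%). Among the genes of the lists they were Trp53inp1, Mdm4, Sirt1, Lig4, Thbs1 and Wee1 in the 3M set and Rnf8 in the first set, named after their values were seen. Mdm4 had 13.9, 11.3 and 504 CPM in Chaf1a cko 3M and 6.66, 10.01 and 410.1 CPM in Ctrl 3M, so that replicate 3 of both genotypes stood apart. Sirt1, a deacetylase that acts on p53, had 58.3, 2.82 and 5.16 CPM in Chaf1a cko 3M and 202, 71.5 and 67.4 CPM in Ctrl 3M, without overlap. Lig4, the ligase of end joining, had 5.16, 3.72 and 2.55 CPM in Chaf1a cko 3M and 76.5, 7.58 and 2.64 CPM in Ctrl 3M. In the first set Mdm4 ran from 53.7 to 68.7 CPM in Chaf1a cko and from 38.1 to 58.5 CPM in Ctrl.

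Within groups, members with a mean of at least 10 CPM had a median coefficient of variation of 10.48% in Chaf1a cko and 7.94% in Ctrl, and of 19.9% in Chaf1a cko 3M and 19.3% in Ctrl 3M. Over all genes at that level it was 8.98% in Chaf1a cko and 9.42% in Ctrl, and 17.9% in Chaf1a cko 3M and 21.1% in Ctrl 3M.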
